A study of Mus musculus with 6 samples.

Results

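Genes that control how long an mRNA lives were followed in regulatory T cells (Treg) recovered from grafted mice. The set comprised 10 genes of the 29199 in the deposited table: the Regnase genes Zc3h12a and Zc3h12d, the Roquin genes Rc3h1 and Rc3h2, the genes Zfp36, Zfp36l1 and Zfp36l2, the poly(A) polymerase genes Tent5a and Tent5c, and Btg1. They were taken by gene symbol. The set was put together around Tent5a, which had been noted as lower in one of the groups, so the difference in Tent5a is given as a description with no test. All 10 genes passed the filter on low counts, which kept 18321 genes.

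Total RNA was sequenced from 6 Treg libraries, 3 in each of 2 groups. Irradiated hosts, C57BL/6 J or CD45.1+ B6 per the methods, had received bone marrow of C57BL/6 J and B6D2F1 origin, wild-type (WT) Treg and naive conventional CD4+ T cells (Tconv), and Treg were sorted from the spleen 3 weeks later. In the group called Treg with WT Tconv, the co-injected Tconv were WT (Hp1a+/+). In the group called Treg with HP1a KO Tconv, the Tconv came from Hp1a-/- littermates, which lack the heterochromatin protein HP1α. The Treg in both groups were WT, so that by the labels the groups differed in the Tconv. They came from B6 Foxp3-Thy1.1 mice, in which cells that express Foxp3 carry the surface marker Thy1.1, and were expanded in culture with IL-2, TGF-β and beads coated with anti-CD3 and anti-CD28 antibodies before transfer. The Hp1a allele was excised with a CMV-cre transgene, so the deletion was not limited to T cells, and the line was kept on a mixed 129/Sv and C57BL/6 background. Per the methods, littermates were matched for sex and aged 6 to 12 weeks. The labels do not say whether each library came from a separate mouse or from a pool, so the p-values measure only the spread between these libraries. Because the libraries are bulk samples, fewer cells of a type and less RNA per cell cannot be told apart.

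An mRNA usually starts to decay when its poly(A) tail is shortened by the CCR4-NOT complex. Zfp36 proteins bind AU-rich elements in 3′ untranslated regions (UTR) and recruit that complex, Roquin binds stem-loops and recruits it too, and Regnase cuts stem-loops itself. BTG and Tob proteins are adaptors that bring deadenylases to poly(A) tails, whereas Tent5 enzymes act the other way and add adenosines to the tail. In T cells, Regnase-1 and the Roquin proteins restrain the mRNAs of costimulatory receptors and cytokines, and BTG1 is known for keeping naive cells quiescent.

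The totals ranged from 87421755 to 119078882 counts per library, and the members had between 6647 (Tent5a) and 250489 (Btg1) counts in a library. All 7 Treg markers were detected in all 6 libraries, with Foxp3 between 153.6 and 251.7 counts per 1000000 counts of the library (CPM) and Il2ra between 120.6 and 198.7 CPM, both lowest in HP1a KO Tconv replicate 2. Cbx5, which encodes HP1α and was deleted in the Tconv only, was between 107.2 and 150.9 CPM in these WT Treg. Replicate 3 of Treg with WT Tconv stood apart by RNA of other blood cells: its 5 red cell markers summed to 5434 CPM against 367.6 to 671.1 CPM in the other libraries, its 7 neutrophil markers to 1590 CPM against 38.14 to 198.6 CPM, and its 6 macrophage or monocyte markers to 179.8 CPM against 12.81 to 46.65 CPM. All of these markers were detected in every library. The 5 B cell markers summed to 14.47 to 24.77 CPM. The sort took CD4+Thy1.1+ cells, a gate that should leave such cells out. Their part in the results was not tested.

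The members of the Zfp36 family carry in their own 3′ UTR the AU-rich heptamer TATTTAT, which is the core of the element these proteins are known to bind. It is shown here for the family because its members share the motif. The levels of Zfp36 overlapped between the groups, whereas those of Zfp36l1 and Zfp36l2 did not. The differences among the 3 genes were not tested. Each line gives 25 bases of the sense strand from the mouse genome (GRCm39), 5′ to 3′, with the heptamer in capitals. The windows of Zfp36 sites 1 and 2 overlap.
Zfp36 site 1, chr7:28076393-28076417, minus strand: tgggcccttTATTTATgacgacttt
Zfp36 site 2, chr7:28076378-28076402, minus strand: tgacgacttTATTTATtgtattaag
Zfp36 site 3, chr7:28076353-28076377, minus strand: attttatagTATTTATatatattgg
Zfp36l1 site 1, chr12:80155198-80155222, minus strand: atcaaaacgTATTTATtgccaaact
Zfp36l1 site 2, chr12:80155157-80155181, minus strand: ttttgttcaTATTTATcgggatgac
Zfp36l1 site 3, chr12:80154943-80154967, minus strand: ctgttggatTATTTATtttagaaat
Zfp36l2 site 1, chr17:84492344-84492368, minus strand: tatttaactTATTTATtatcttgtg
Zfp36l2 site 2, chr17:84492296-84492320, minus strand: tccatactgTATTTATcgagtatga
Zfp36l2 site 3, chr17:84492110-84492134, minus strand: tgtatgtaaTATTTATttcattaat

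Of the 10 members, 5 held the heptamer, at 15 sites in all: 3 in each gene of the Zfp36 family, 2 in Rc3h1 and 4 in Rc3h2. It was not found in the 3′ UTR of Zc3h12a, Zc3h12d, Tent5a, Tent5c or Btg1. Only the sense strand of the canonical transcript was searched, and 30.8% of 16612 annotated 3′ UTRs hold the heptamer. Since long UTRs hold it more often, each member was set beside UTRs of like length (from 0.8 times its own length to the inverse of that ratio). For the 774 bases of Zfp36, 21.4% of such UTRs held it at all and 1.3% held it at least 3 times. For Zfp36l1 and Zfp36l2, with 1835 and 2049 bases, the shares with at least 3 were 4.4% and 5.1%. The Roquin UTRs were much longer, and 44.3% of UTRs as long as that of Rc3h1 (7181 bases) had as many sites, against 10.2% for Rc3h2 (6336 bases). The UTR of Tent5a (4018 bases) had none, whereas 58.2% of UTRs of like length had at least 1. A match is a description of the sequence and not of binding.

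Tent5a was lower in Treg with HP1a KO Tconv. Tent5a encodes a cytoplasmic poly(A) polymerase that lengthens the tails of selected mRNAs, and it lies on chromosome 9 at chr9:85202492-85209401 (minus strand, GRCm39; ENSMUSG00000032265). Its level was 131.3, 132.3 and 124.5 CPM in Treg with WT Tconv and 92.81, 91.16 and 75.29 CPM in Treg with HP1a KO Tconv. The groups did not overlap, and the lowest library with WT Tconv lay well above the highest with HP1a KO Tconv. The means were 129.4 ± 4.27 and 86.4 ± 9.68 CPM (SD, n = 3 each), so that the level with HP1a KO Tconv was 66.8% of that with WT Tconv. This is -0.58 on the log2 scale (standard error 0.0897), and the value stayed between -0.62 and -0.49 when any single library was left out. The second polymerase of the pair, Tent5c (chr3:100358944-100396702, minus strand; ENSMUSG00000044468), is known for its part in plasma cells and myeloma. Tent5c was at 273.2, 304.0 and 376.7 CPM with WT Tconv and at 236.5, 262.4 and 215.4 CPM with HP1a KO Tconv. These groups did not overlap either, and the highest value was in WT Tconv replicate 3, the library with the RNA of other blood cells. Its log2 fold change was -0.42 (standard error 0.128), with an adjusted p of 0.237 by the quasi-likelihood test of edgeR and 0.0379 by DESeq2. Without that library the log2 fold change was -0.28, and the adjusted p of DESeq2 was 0.246. The plasma cell markers Jchain, Sdc1 and Mzb1 summed to 12.15 CPM in that library and to 0.766 to 3.54 CPM in the others, with Mzb1 at 0 in some libraries, and their part in the level of Tent5c was not tested.

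**Figure D1:**
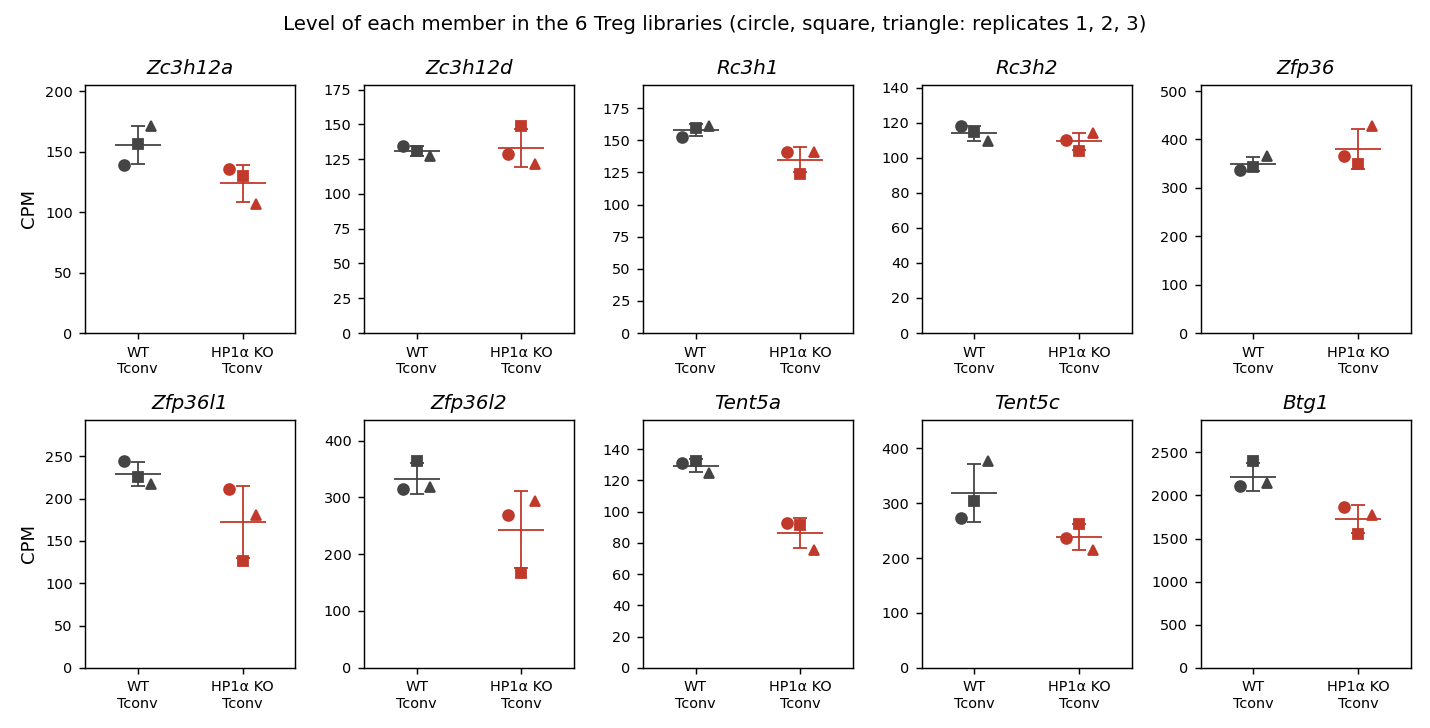
Level of each of the 10 members (CPM over TMM-scaled totals, linear axes that start at 0), with a point for each of the 6 libraries and a bar for the mean of each group. The points of Tent5a are apart by group (means of 129.4 and 86.4 CPM), whereas Zfp36, Rc3h2 and Zc3h12d overlap.

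Btg1 was by far the most abundant member and was also lower with HP1a KO Tconv. The gene lies at chr10:96452861-96458671 (plus strand; ENSMUSG00000036478). It was at 2108, 2400 and 2140 CPM with WT Tconv and at 1868, 1548 and 1768 CPM with HP1a KO Tconv, with no overlap between the groups. On the log2 scale Btg1 differed by -0.36 (standard error 0.0962, 95% interval -0.58 to -0.14). The adjusted p was 0.209 by edgeR and 0.0193 by DESeq2. Without WT Tconv replicate 3 the log2 fold change by DESeq2 was -0.39, and the adjusted p of DESeq2 was 0.0683.

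The levels of the Regnase gene Zc3h12a were lower in every library with HP1a KO Tconv, whereas those of Zc3h12d overlapped. The difference between them was not tested. Zc3h12a (chr4:125012216-125021711, minus strand; ENSMUSG00000042677) encodes Regnase-1, an endonuclease that cleaves inflammatory mRNAs. Zc3h12a was at 139.1, 156.5 and 171.1 CPM with WT Tconv and at 135.6, 129.8 and 106.4 CPM with HP1a KO Tconv. The groups did not overlap but came close, since the lowest library with WT Tconv was 139.1 CPM and the highest with HP1a KO Tconv 135.6 CPM. The log2 fold change was -0.33 (standard error 0.111, 95% interval -0.58 to -0.07), with an adjusted p of 0.255 by edgeR and 0.0928 by DESeq2. Without WT Tconv replicate 3 it was -0.25, and the adjusted p was 0.459 by edgeR and 0.392 by DESeq2. Its relative Zc3h12d (chr10:7708080-7746160, plus strand; ENSMUSG00000039981) ranged from 127.3 to 134.1 CPM with WT Tconv and from 121.7 to 148.6 CPM with HP1a KO Tconv. These ranges overlapped, and the log2 fold change of 0.03 (95% interval -0.17 to 0.22, adjusted p 0.911 by edgeR) turned to -0.06 without HP1a KO Tconv replicate 2.

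The Roquin genes encode RNA-binding ubiquitin ligases with overlapping targets. Rc3h1 (Roquin-1, chr1:160733982-160802548, plus strand; ENSMUSG00000040423) was at 152.4, 159.9 and 160.9 CPM with WT Tconv and at 140.9, 123.5 and 140.5 CPM with HP1a KO Tconv. The groups did not overlap, and the log2 fold change was -0.23 (standard error 0.0730, 95% interval -0.39 to -0.06), with an adjusted p of 0.242 by edgeR and 0.134 by DESeq2 (0.326 by DESeq2 without WT Tconv replicate 3). Rc3h2 (Roquin-2, chr2:37258909-37313172, minus strand; ENSMUSG00000075376) overlapped between the groups, at 109.4 to 117.9 CPM with WT Tconv and 103.9 to 113.8 CPM with HP1a KO Tconv. Its log2 fold change was -0.06 with a 95% interval from -0.21 to 0.09, which overlapped the interval of Rc3h1. The difference between the pair was not tested.

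Within the Zfp36 family, the levels of Zfp36l1 and Zfp36l2 were lower in every library with HP1a KO Tconv than in any with WT Tconv, whereas those of Zfp36 overlapped. Zfp36 (tristetraprolin, chr7:28076209-28079710, minus strand; ENSMUSG00000044786) was at 337.8, 343.0 and 365.4 CPM with WT Tconv and at 366.2, 349.0 and 427.3 CPM with HP1a KO Tconv. The groups overlapped, and the log2 fold change was 0.13 (standard error 0.0886, 95% interval -0.08 to 0.33, adjusted p 0.550 by edgeR). It was between 0.04, without HP1a KO Tconv replicate 3, and 0.19, without HP1a KO Tconv replicate 2. Zfp36l1 (chr12:80154528-80160006, minus strand; ENSMUSG00000021127) was at 244.5, 226.2 and 217.0 CPM with WT Tconv and at 210.9, 126.3 and 180.2 CPM with HP1a KO Tconv. Zfp36l2 (chr17:84491132-84495382, minus strand; ENSMUSG00000045817) was at 314.5, 364.0 and 319.0 CPM with WT Tconv and at 269.0, 166.1 and 294.5 CPM with HP1a KO Tconv. For both paralogs the groups did not overlap, and the lowest value of all was in HP1a KO Tconv replicate 2. The log2 fold changes were -0.41 (standard error 0.182, adjusted p 0.377 by edgeR and 0.0957 by DESeq2) for Zfp36l1 and -0.45 (standard error 0.218, adjusted p 0.421 by edgeR and 0.0933 by DESeq2) for Zfp36l2. Without HP1a KO Tconv replicate 2 they were -0.23 and -0.24. Without WT Tconv replicate 3 they were -0.45 and -0.48, and the adjusted p of DESeq2 was 0.232 and 0.259. Exons of a long noncoding RNA on the opposite strand cover 3.57% of the exonic length of Zfp36, 2.82% of that of Zfp36l2 and 0.49% of that of Rc3h2. The kit keeps strand, but the strand setting of the counting is not given in the sources used here.

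**Figure D2:**
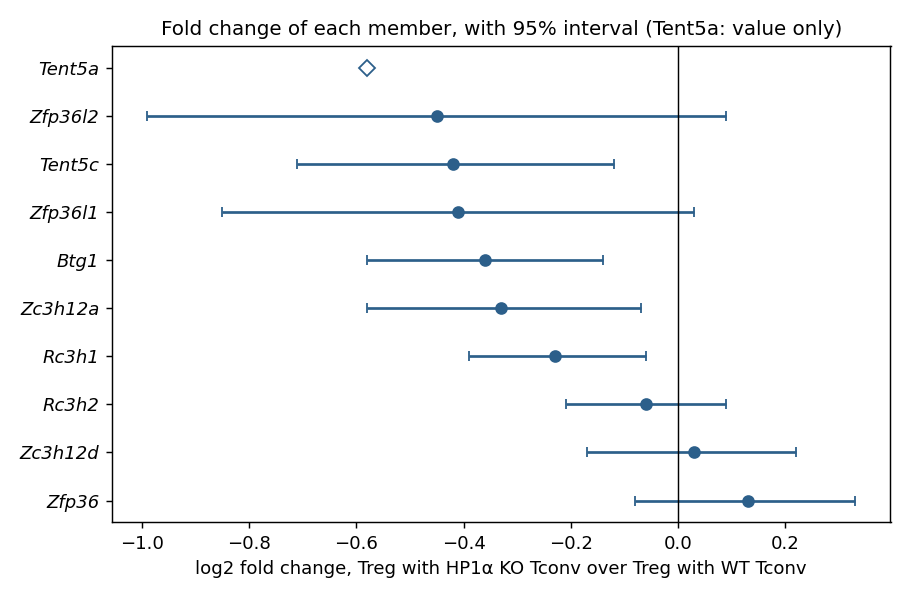
Log2 fold change of each member, Treg with HP1a KO Tconv over Treg with WT Tconv, from edgeR, with 95% intervals except for Tent5a, whose value is a description. The values run from -0.58 (Tent5a) to 0.13 (Zfp36), and the intervals of Zc3h12d, Rc3h2, Zfp36, Zfp36l1 and Zfp36l2 include 0.

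Counted over the set, 8 of the 10 members had a log2 fold change below 0, where 51.5% of all genes tested did, and the median was -0.34 against -0.01 over all genes. In 7 members, Tent5a among them, every library with HP1a KO Tconv was below every library with WT Tconv, a pattern found in 11.6% of all genes. In the remaining 3 the groups overlapped, and no member was higher without overlap. Leaving Tent5a aside, edgeR called 0 of 9 members at an adjusted p under 0.05, as it called 0% of all 18321 genes, where the smallest adjusted p was 0.101. At an unadjusted p under 0.05 it found 4 of 9, all lower (Zc3h12a, Rc3h1, Tent5c and Btg1), and 7.52% of all genes were lower and 6.98% higher at that level. DESeq2 called 2 of 9 (Tent5c and Btg1, both lower) at an adjusted p under 0.05, with 4.35% called and 3.03% called lower of the 12097 genes left by its own filter. Without WT Tconv replicate 3 DESeq2 called 0 of 9, with 1.23% called of the 14548 genes it then kept. The log2 fold change by DESeq2 was then -0.28 for Tent5c and -0.39 for Btg1, beside -0.42 and -0.36 with all libraries. DESeq2 was refitted with no other library left out. A loss of calls due to WT Tconv replicate 3 therefore cannot be told apart from one due to fewer libraries, here or in the gene lists below. None of the 10 had an absolute log2 fold change over 1, which the study required for a differentially expressed gene. The set was assembled with results of this comparison known, so these shares describe it and support no test of it.

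The count of 4 rested on single libraries in both groups. It was 3 without WT Tconv replicate 3, when Zc3h12a was lost. It was 2 without WT Tconv replicate 2, when Tent5c and Btg1 were left, and 7 without HP1a KO Tconv replicate 2, when Zfp36l1, Zfp36l2 and, as a higher gene, Zfp36 were added. The share of all genes at that level with a library left out is not given here. A shift in the members therefore cannot be told apart from one over all genes. The spread within groups differed between members: the pooled SD of log2 CPM was smallest for Rc3h2, at 0.0612, and largest for Zfp36l2, at 0.325, or the 8.02 and 70.4 percentile of all genes tested.

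**Figure D3:**
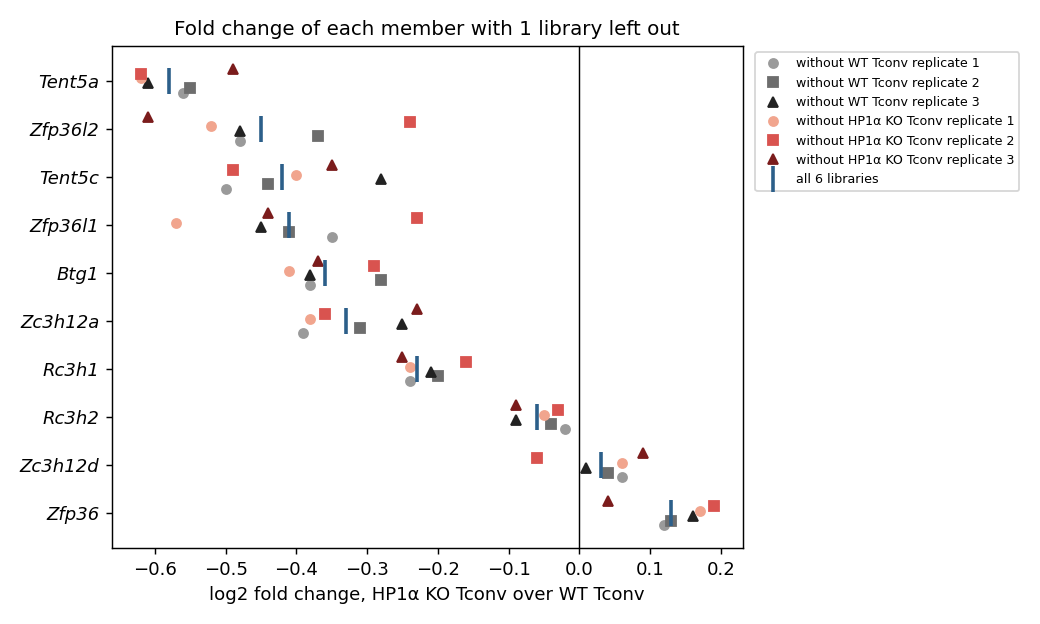
Log2 fold change of each member with all 6 libraries (vertical bars) and with each library left out in turn (points). Zfp36l1 and Zfp36l2 move to -0.23 and -0.24 without HP1a KO Tconv replicate 2, Tent5c moves to -0.28 without WT Tconv replicate 3, and Tent5a stays between -0.62 and -0.49.

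Levels were compared between members as CPM per kilobase of exonic length. In Treg with WT Tconv the order was Btg1 (419.5), Zfp36 (99.6), Zfp36l2 (88.3), Zfp36l1 (71.4), Tent5c (50.1), Zc3h12a (40.0), Tent5a (22.5), Zc3h12d (20.7), Rc3h1 (13.8) and Rc3h2 (5.18). The ranges of Zfp36 and Zfp36l2 overlapped over the 3 libraries, as did those of Tent5c and Zc3h12a, while the other neighbours were apart. With HP1a KO Tconv, Tent5a stood at 15.03 CPM per kilobase, below Zc3h12d at 21.1, and the ranges of Zfp36l2, Zfp36l1, Tent5c and Zc3h12a overlapped from one neighbour to the next. With the length of the longest transcript in place of the exonic length, Tent5a stood below Zc3h12d with WT Tconv too. Among 18189 genes tested with an exonic length, the level of the members lay between the 64.4 percentile (Rc3h2) and the 99.6 percentile (Btg1). The ratio of Zfp36 to Zfp36l2, in CPM not corrected for length and so read only between libraries, was 1.07, 0.942 and 1.15 with WT Tconv and 1.36, 2.10 and 1.45 with HP1a KO Tconv. This ratio was higher in every library with HP1a KO Tconv, with the highest value in replicate 2. It had the widest shift of 5 ratios within families, by 0.61 on the log2 scale. The ratio of Rc3h1 to Rc3h2 was lower in every library with HP1a KO Tconv, by -0.17. Its groups came close, at 1.29 in WT Tconv replicate 1 and 1.28 in HP1a KO Tconv replicate 1. Those of Tent5a to Tent5c (-0.18), Zc3h12a to Zc3h12d (-0.35) and Zfp36l1 to Zfp36l2 (0.05) overlapped between the groups. None of the 5 was tested.

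**Figure D4:**
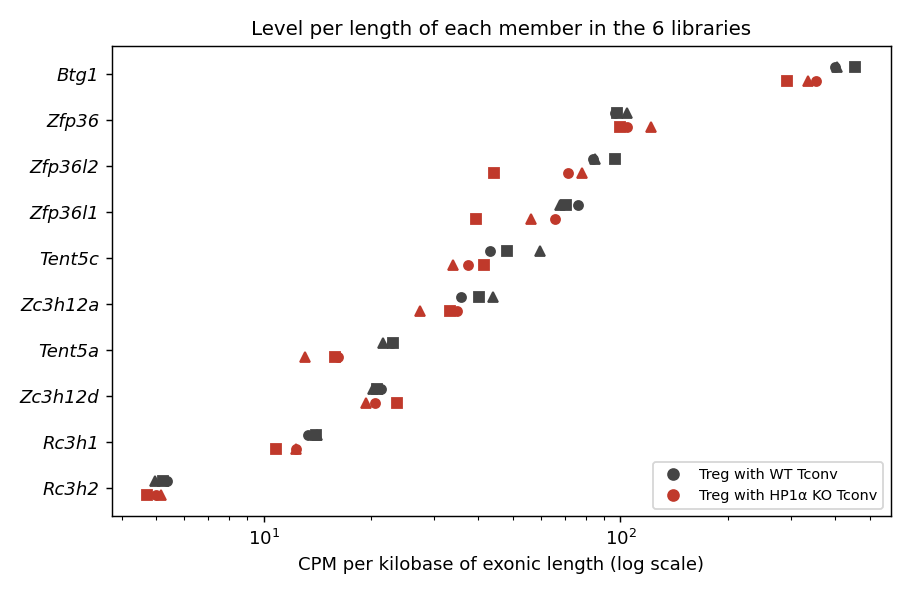
Level of each member as CPM per kilobase of exonic length (log axis) in every library, ordered by the mean in Treg with WT Tconv, with circles, squares and triangles for replicates 1, 2 and 3. Btg1 stands above all others (419.5) and Rc3h2 below all others (5.18), and the mean of Tent5a is above that of Zc3h12d with WT Tconv (22.5 and 20.7) and below it with HP1a KO Tconv (15.03 and 21.1).

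Over the 6 libraries, the genes whose log2 CPM followed Tent5a most closely were Cacul1 (Pearson r of 0.9977), Gm42521 (0.9956), Fam107b (0.9941), Lin7c (0.9933) and Cggbp1 (0.9931), among the 13248 genes whose mean reached 100 counts. An r above 0.95 was reached by 196 of these genes, and the 6 points share the group difference by which Tent5a was noted. Among the members, r with Tent5a was highest for Zc3h12a (0.85) and Btg1 (0.82) and was -0.77 for Zfp36. Between the other members, r was highest for Rc3h1 with Btg1 (0.96), for Rc3h1 with Zfp36l2 and Zc3h12a with Tent5c (0.93 each), and for Zfp36l1 with Zfp36l2 (0.91), and these too hold the group difference.

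Beyond the 10 members, a list of 81 further genes of mRNA decay and tailing was read from the same fit, of which 79 were tested. Of those tested, Zc3h12b had no adjusted p from DESeq2. Of the 4 further adaptors of the Btg1 family, 3 had values below 0, as Btg1 had. Tob1 was at 26.4 ± 1.04 CPM with WT Tconv and 19.3 ± 1.83 CPM with HP1a KO Tconv (SD, n = 3 each), a log2 fold change of -0.45 with an adjusted p of 0.209 by edgeR and 0.00677 by DESeq2. Tob2 had a log2 fold change of -0.45 as well (DESeq2 adjusted p 0.0101), and Btg3 and Btg2, chosen after their values were seen, had -0.36 (DESeq2 adjusted p 0.0853) and 0.03 (DESeq2 adjusted p 0.903). Zc3h12c, a further Regnase gene, was at 25.2 ± 5.92 CPM and 15.1 ± 1.63 CPM, a log2 fold change of -0.74 (DESeq2 adjusted p 0.00213). N4bp1, a related endonuclease, had a log2 fold change of -0.34 (DESeq2 adjusted p 0.0114). Hnrnpd, which encodes the AU-rich element binding protein AUF1, had one of -0.35 (DESeq2 adjusted p 0.0395). Tent4b, a nuclear tailing enzyme, had one of -0.30 (DESeq2 adjusted p 0.0499). DESeq2 called these 6 genes lower and 0 genes of the list higher, where it called 3.03% lower and 1.31% higher of the 12097 genes left by its filter, but without WT Tconv replicate 3 the adjusted p of DESeq2 was 0.0590 for Tob1, 0.0727 for Zc3h12c, 0.0729 for N4bp1, 0.115 for Tob2 and 0.143 for both Hnrnpd and Tent4b.

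In the core machinery DESeq2 called 0 genes of the CCR4-NOT complex, of decapping and of the exosome. It called 4.35% of the 12097 genes left by its filter. In groups of 11, 9 and 12 genes, 0 calls lie close to that share. Of the 11 genes of the CCR4-NOT complex, 8 were below 0 and 3 had an unadjusted p under 0.05, all lower: Cnot6 (log2 fold change -0.19), Cnot7 (-0.22) and Cnot11 (-0.16). Cnot6 and Cnot7 encode catalytic subunits, and the others that do, Cnot6l and Cnot8, were at -0.17 and 0.15 with no unadjusted p under 0.05. Of the 9 genes of decapping and 5′ decay, 2 had an unadjusted p under 0.05 and were higher, one of them Dcp1b (0.29), as had 2 of the 12 genes of the exosome and 3′ decay, one of them Exosc4 (0.36). The list held 9 other genes of terminal nucleotidyltransferases, Tent4b among them, of which 7 were tested. In all 7 the groups did not overlap, with 6 lower and 1 higher, where 23.0% of all genes did not overlap. An unadjusted p under 0.05 was found for 4 of the 7, 3 of them lower. Of the terminal uridylyltransferase genes in this group, Tut1 had a log2 fold change of 0.30 (adjusted p 0.220 by edgeR). Tut7 had one of -0.18 (0.270) and Tut4 one of -0.16 (0.388), the latter pair chosen after their values were seen. Over the list, edgeR gave 0 genes at an adjusted p under 0.05 and 23 at an unadjusted p under 0.05, 17 of them lower, or 29.1% of 79 genes beside 14.5% of all genes. The median log2 fold change was -0.08. The count was 12, 11 and 14 without WT Tconv replicates 1, 2 and 3, with no share of all genes given for those fits.

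mRNAs described as targets of Regnase, Roquin or Zfp36 proteins were counted in the same way. Of the 30 targets, 22 had a log2 fold change below 0 and 8 above, where 51.5% of all genes were below 0, with a median of -0.21 against -0.01. By edgeR an unadjusted p under 0.05 was found for 8 of them, or 26.7% beside 14.5% of all genes, of which 6 were lower, and 0 passed an adjusted p under 0.05. The count was 13 without HP1a KO Tconv replicate 2, with no share of all genes given for that fit. DESeq2 called 5 targets lower and 0 higher, beside 3.03% lower and 1.31% higher of the genes left by its filter. Il2, Il6, Csf2, Il17a, Ptgs2 and Vegfa had no adjusted p from DESeq2 with all libraries and could not be called. Rel, an NF-κB subunit, was at 161.5 ± 2.97 CPM with WT Tconv and 93.5 ± 16.2 CPM with HP1a KO Tconv (SD, n = 3 each), a log2 fold change of -0.79 (adjusted p 0.209 by edgeR and 7.66e-07 by DESeq2). Bhlhe40, a transcriptional repressor, had a log2 fold change of -0.80 (DESeq2 adjusted p 0.000291) and Cdkn1a, a cell cycle inhibitor, one of -0.71 (DESeq2 adjusted p 0.00932). Il10, a suppressive cytokine, was at -0.52 (DESeq2 adjusted p 0.0180) and Ctla4, an inhibitory receptor, at -0.38 (DESeq2 adjusted p 0.0414). Without WT Tconv replicate 3, DESeq2 gave adjusted p-values of 0.000137 for Rel and 0.0280 for Bhlhe40, but 0.143 for Cdkn1a, 0.0854 for Il10 and 0.0614 for Ctla4. Among targets with values above 0 were Bcl2, which protects from apoptosis (log2 fold change 0.29, DESeq2 adjusted p 0.0535), Fos (0.30, DESeq2 adjusted p 0.106) and Myc (0.26, DESeq2 adjusted p 0.376). The costimulatory targets Icos (-0.20, DESeq2 adjusted p 0.343, and 0.0548 without WT Tconv replicate 3) and Tnfrsf4 (0.06, DESeq2 adjusted p 0.862) overlapped between the groups and were named after their values were seen. Of the 30 targets, 21 (70%) hold the heptamer, beside 30.8% of all annotated 3′ UTRs, with no match for UTR length.

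Genes were then grouped by the number of heptamers in their 3′ UTR, a comparison added after the members' values had been seen. The median log2 fold change was 0.023 for 8836 genes with none, -0.033 for 2576 genes with 1, -0.058 for 913 genes with 2 and -0.076 for 577 genes with 3 or more. The share below 0 was 45.7% in genes with none and 66.2% in genes with 3 or more. The UTRs of the groups differed too, with a median of 906 bases and a GC content of 46% for genes with none against 3310 bases and 40.1% for genes with 3 or more. The log2 CPM of each gene was taken as a deviation from its mean over the 6 libraries, so only differences between libraries can be read. Each library was given 1 value, the median log2 deviation of genes with 3 or more sites minus that of genes with none. It was 0.045, 0.056 and 0.054 with WT Tconv and -0.033, -0.061 and -0.039 with HP1a KO Tconv. The groups did not overlap, and their means differed by -0.096. An exact permutation test gave a p of 0.1, the smallest that 3 libraries per group allow, so it could not decide. The difference is a description, drawn from the same libraries as the medians above. When only UTRs of 1500 to 3000 bases were kept (169 and 1962 genes), the values were 0.017, 0.038 and 0.043 with WT Tconv and -0.026, -0.020 and -0.047 with HP1a KO Tconv, a difference of -0.064. When their GC content was also held to 37 to 43% (79 and 522 genes), they were 0.006, 0.061 and 0.078 with WT Tconv and -0.014, -0.024 and -0.060 with HP1a KO Tconv, a difference of -0.081. In that set the groups came close, at 0.006 and -0.014.

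**Figure D5:**
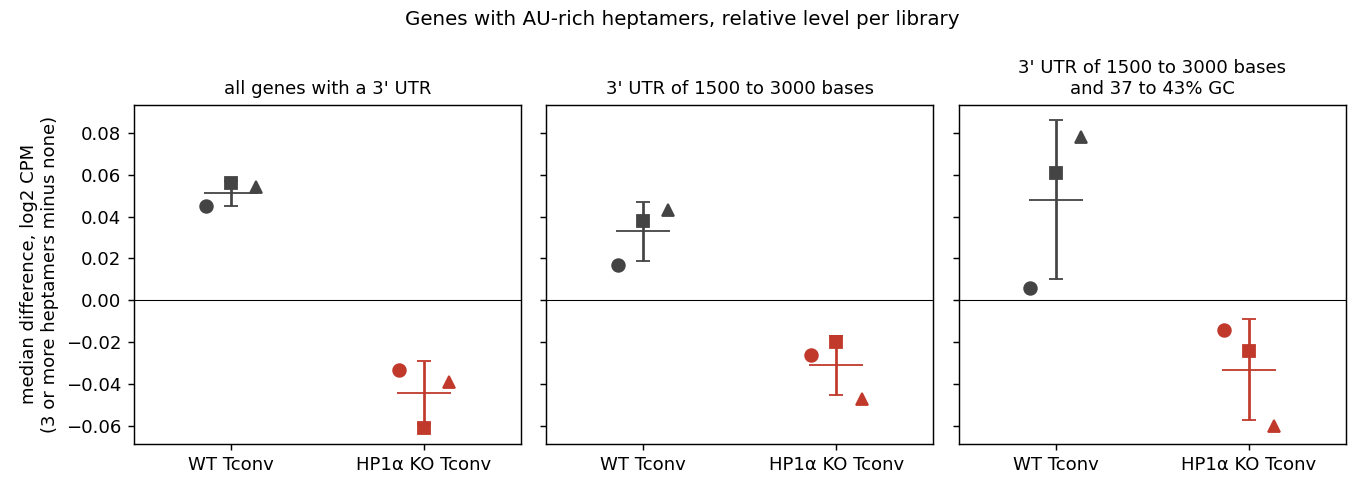
Median log2 CPM deviation of genes with 3 or more heptamers minus that of genes with none, 1 point per library, for all 3′ UTRs, for UTRs of 1500 to 3000 bases, and for such UTRs with a GC content of 37 to 43%. Deviations are from the mean of each gene over the 6 libraries. In each panel the libraries with HP1a KO Tconv lie below those with WT Tconv, by -0.096, -0.064 and -0.081.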

How the data were processed

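Reads were processed by the authors with nf-core (trimming, STAR alignment to GRCm39, Salmon quantification). Whole-number estimated counts, not normalized, were deposited. Salmon divides reads that fit several genes by a model, so counts of paralogs or overlapping genes can exchange reads. Differences were tested by quasi-likelihood in edgeR version 4.0.16 with R version 4.3.3 (robust, TMM normalization, filterByExpr, group as the only term), with Benjamini-Hochberg adjustment over all 18321 genes tested. DESeq2 version 1.42.0 was the alternative. CPM were counts over TMM-scaled totals. The fits were also run on simulated data, and the outcome is not given here. No pair of replicates was alike within sampling noise (chi-square per degree of freedom of at least 21.6). Positions and 3′ UTRs came from GENCODE release M39 (GRCm39), where 28854 identifiers matched.

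The members, gene lists and tests were chosen with earlier results of these data known, and the lists were drawn from general knowledge of mRNA decay. Named genes were all members, the 5 genes most correlated with Tent5a, and from the decay and target lists the 3 in each direction with the smallest p and any with an adjusted p under 0.05 in edgeR or DESeq2. Other genes were chosen after their values were seen. Alternatives were other normalizations, no count filter, the replicate number as a block, leaving out each library, and, added after seeing the data, DESeq2 without WT Tconv replicate 3.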

Additional observations from a re-analysis of the deposited data

How the results depend on the processing

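Over 12 alternatives for each of the 9 members other than Tent5a, 1 of 108 fits changed direction. As edgeR called almost no gene, staying short of an adjusted p under 0.05 says nothing of stability. Zfp36l1 (-0.41) ranged from -0.57 to -0.23 and Zfp36l2 (-0.45) from -0.61 to -0.24 with 1 library left out. Tent5c (log2 fold change -0.42) and Btg1 (-0.36) passed an adjusted p of 0.05 with DESeq2, and Zc3h12d ranged from -0.06 to 0.09 with 1 library left out, below 0 without HP1a KO Tconv replicate 2. The cause was not tested. Over all genes, edgeR called 0 genes, DESeq2 526, and edgeR with no filter beyond 1 count 38. DESeq2 without WT Tconv replicate 3 called 179, and edgeR with 1 library left out between 0 and 2. At an unadjusted p under 0.05, leaving out 1 library gave between 2 and 7 members (4 with all libraries), between 11 and 23 genes of decay (23) and between 6 and 13 targets (8), and DESeq2 without WT Tconv replicate 3 gave 15 genes of decay. Shares of all genes at that level are not given for these fits. With the longest transcript as the length, 8 of 10 members kept their rank by level with WT Tconv. The heptamer difference was -0.064 in UTRs of 1500 to 3000 bases and between -0.101 and -0.087 with 1 library left out.

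The replicate number as a block gave 1 gene of all genes at an adjusted p under 0.05. At an unadjusted p under 0.05 it gave 4 members (Rc3h1, Zfp36l1, Tent5c and Btg1), so that Zfp36l1 took the place of Zc3h12a. For this fit too, no share of all genes at that level is given. Libraries with the same number correlated in their deviations from the group means at -0.042, 0.182 and 0.117. Those with different numbers correlated at -0.218 to 0.121. With 3 libraries per group these values do not settle whether the numbers pair the libraries.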

Other observations

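Fos and Zfp36 are early response genes, which stimulation and handling are known to induce. Of 12 immediate early and stress genes, 7 had a log2 fold change below 0 and 5 above, where 51.5% of all genes were below 0. By edgeR, 0 passed an adjusted p under 0.05, and 3 (25%, beside 14.5% of all genes) had an unadjusted p under 0.05: Fos was higher with HP1a KO Tconv, at 384.6, 394.4 and 401.9 CPM with WT Tconv against 417.9, 475.6 and 560.1 CPM, while Egr1 (log2 fold change -0.32) and Dusp1 (-0.22) were lower. By DESeq2 the adjusted p of Egr1 was 0.0602 with all libraries and 0.00243 without WT Tconv replicate 3, while that of Dusp1 was 0.177 and 0.480 and that of Fos 0.106 and 0.251. Hspa1a and Hspa1b, heat shock genes, stood at 30.6 and 50.43 CPM in WT Tconv replicate 3 and at no more than 10.21 CPM in the other libraries.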
